A study of Mus musculus with 24 samples.

Results

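Genes of the olfactory and nasal lineage were followed through 24 microarrays of mouse embryonic maxilla (upper jaw) and mandible (lower jaw). There were 10 of them, Bpifa1, Otx2, Lhx2, Fezf1, Sp8, Eya1, Cnga2, Gng8, Foxj1 and Dynlrb2, out of the 18193 genes with a named probe set in the table. The genes were chosen by name after results of the same arrays in the maxilla had been seen, so their differences between genotypes in the maxilla and between jaws are descriptions and carry no test. The brightest probe set by its mean over the 24 arrays stood for a gene, and all 10 passed the filter on low values (above the array's own median on at least 3 of 24 arrays).

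The tissue came from embryos of strain C57B6 at embryonic day 14.5, from matings of Wnt1-Cre;Tgfbr2 fl/+ with Tgfbr2 fl/fl mice. Wnt1-Cre acts in the neural crest, which gives rise to most of the facial skeleton and connective tissue, so the TGF-beta type II receptor was removed there, while surface ectoderm, placodes and muscle derive from other sources. Mutants were recognised by their cleft palate and calvarial defect, and the controls were littermates whose exact genotype is not given in the labels. Maxilla and mandible were each cut into a distal and a proximal end, which gives 8 groups of 3 arrays by genotype, jaw and end. The labels do not say whether the 3 replicates of a group came from separate embryos, so each p-value reflects only how far these arrays vary, and that variation may be technical.

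The olfactory epithelium arises from the olfactory placode, a thickening of the head ectoderm that sinks in to line the nasal cavity. Its progenitors pass through a series of transcription factors and become sensory neurons, which signal odours through a G protein and a cyclic-nucleotide-gated channel. The neighbouring respiratory epithelium carries motile cilia and secretes protective proteins onto the nasal surface. The nasal cavity lies directly above the developing palate, so a dissected maxilla can carry some of its lining.

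Values are log2 signals between 3.44 and 14.83, and values toward the lower end are dominated by background. Array medians lay between 6.93 and 7.0, and arrays of 1 group differed from each other by a root mean square of 0.18 to 0.588. In these bulk pieces, fewer cells of a type and less RNA per cell cannot be told apart. Tgfbr2 itself read 11.52 to 12.12 on the control arrays and 12.16 to 12.56 on the mutant arrays. Its position relative to the deleted sequence is not stated in the labels, so this reading does not check them. Xist, which is transcribed in female cells, read 12.49 to 13.26 on all 12 mutant arrays, while 7 of 12 control arrays read 12.43 to 13.43 and the other 5 read 6.28 to 6.66, among them 2 of the 3 control proximal maxilla arrays. Sex was therefore partly confounded with genotype, and its part in the values was not tested. Each control group held both high and low Xist readings, so its 3 arrays did not all come from 1 embryo. For the mutant groups Xist does not tell.

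Several maxilla arrays stood apart from the others of their group. Mutant proximal maxilla arrays 1 and 2 and mutant distal maxilla array 1 had skeletal muscle genes at a mean of 1.92, 1.02 and 1.14 (16 genes, log2, each gene centred on its mean over 24 arrays), against -2.29 to -0.85 on the 6 control maxilla arrays. Their cartilage genes averaged -2.54, -2.79 and -2.49 (14 genes), against -0.16 to 1.71 on the control maxilla arrays. The same arrays had the lowest mean over the 10 nasal genes, at -1.64, -1.27 and -0.74, against 0.88 to 3.42 on the control maxilla arrays. Among control arrays, distal maxilla array 2 was the low one at 0.88, and among mutant proximal arrays, array 3 was the high one at 2.84. The part of muscle, cartilage or the position of the cut in the nasal values was not tested.

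**Figure D1:**
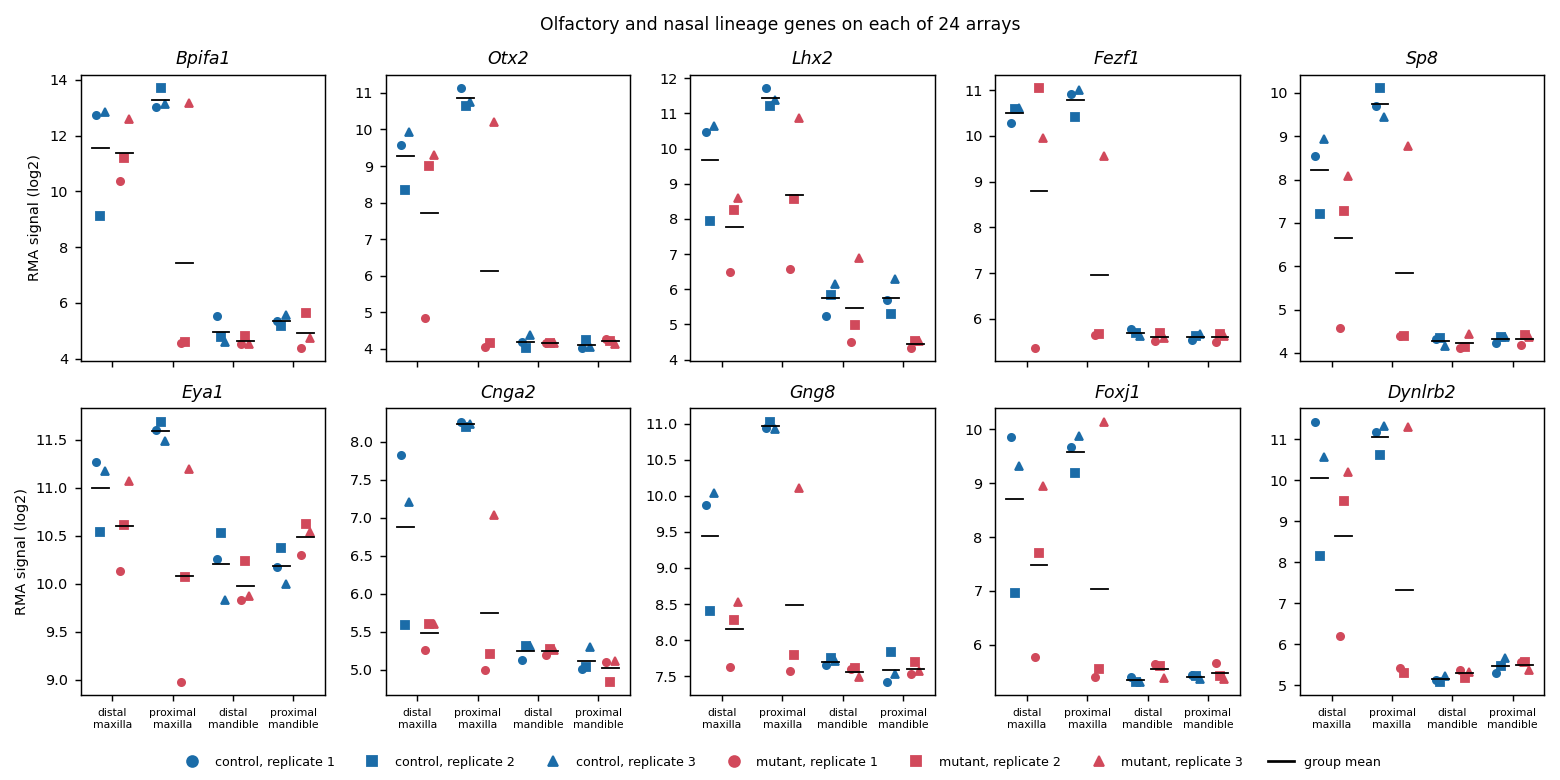
Log2 signal of each of the 10 nasal and olfactory genes (panels) on each of the 24 arrays, grouped by genotype, jaw and end. Control proximal maxilla arrays sit together at a high level for every gene, mutant proximal arrays 1 and 2 rise above the mandible range in Lhx2 on array 2 and in no other gene, and mutant proximal array 3 lies above it in all 10.

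Bpifa1 encodes a protein secreted by nasal and airway epithelium. On control maxilla arrays it read 12.73, 9.12 and 12.84 at the distal end and 13.01, 13.72 and 13.12 at the proximal end. The mutant readings were 10.35, 11.19 and 12.59 distally and 4.55, 4.59 and 13.18 proximally. The 12 mandible arrays lay between 4.37 and 5.62. Bpifa1 was therefore at its mandible level on mutant proximal arrays 1 and 2, while array 3 fell within the control range. The promoter is shown because this gene spanned the widest range of the 10. The 250 bases before its RefSeq start (GRCm38.p6, chr2:154142630-154142879, plus strand) hold the letters TATAAA, in capitals, at -29 to -24.
Bpifa1: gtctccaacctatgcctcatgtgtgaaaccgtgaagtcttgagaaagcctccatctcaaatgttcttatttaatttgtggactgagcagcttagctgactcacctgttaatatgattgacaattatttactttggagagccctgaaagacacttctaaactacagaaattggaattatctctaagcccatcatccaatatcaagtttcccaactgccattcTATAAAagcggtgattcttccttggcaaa

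Otx2 is a homeobox factor of the anterior head and its placodes. It read 9.59, 8.34 and 9.92 on the control distal arrays and 11.14, 10.65 and 10.76 on the control proximal arrays. In mutants it read 4.85, 8.99 and 9.29 distally and 4.04, 4.15 and 10.21 proximally. Mandible arrays lay between 4.01 and 4.38, so Otx2 was above every mandible array on 10 of 12 maxilla arrays and within the mandible range on mutant proximal arrays 1 and 2.

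Lhx2, a LIM-homeobox factor needed for the sensory neuron lineage of the nose, departed from that pattern. Control arrays gave 10.48, 7.94 and 10.63 distally and 11.73, 11.20 and 11.37 proximally. Mutant arrays gave 6.48, 8.27 and 8.59 distally and 6.57, 8.56 and 10.87 proximally. The mandible range was wide, 4.32 to 6.89. Lhx2 was the 1 gene of the 10 that stood above its mandible range on mutant proximal array 2, and it was within that range on mutant distal array 1 and mutant proximal array 1. Lhx2 is also a factor of limb, hair follicle and brain, so its signal need not come from the nose alone.

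Fezf1 encodes a zinc-finger transcriptional repressor that is needed for olfactory sensory neuron development. It read 10.28, 10.58 and 10.61 on control distal arrays and 10.92, 10.41 and 11.00 on control proximal arrays. The mutant values were 5.35, 11.05 and 9.94 distally and 5.64, 5.66 and 9.57 proximally. The mandible range was only 5.50 to 5.77. Fezf1 behaved almost as an on and off reading, with 9 maxilla arrays at 9.57 or above and 3 at 5.66 or below.

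Sp8, a zinc-finger factor of the nasal epithelium and other ectoderm, read 8.55, 7.20 and 8.94 on control distal arrays and 9.70, 10.12 and 9.43 on control proximal arrays. Mutant arrays read 4.56, 7.28 and 8.07 distally and 4.39, 4.38 and 8.76 proximally, against 4.10 to 4.43 in the mandible. As for Otx2, mutant proximal arrays 1 and 2 were within the mandible range.

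Eya1, a transcriptional coactivator in the sensory placodes, is also active in muscle precursors and pharyngeal tissue, and was the gene least restricted to the maxilla. It read 11.27, 10.54 and 11.18 on control distal arrays and 11.61, 11.69 and 11.49 on control proximal arrays. In mutants it read 10.14, 10.62 and 11.07 distally and 8.98, 10.07 and 11.19 proximally. Mandible arrays reached 9.83 to 10.62. Only 7 of 12 maxilla arrays were above that range, and mutant proximal array 1 lay below it. Eya1 was also the 1 gene of the 10 with more than 1 probe set (3). With the mean of the 3, its control proximal difference between jaws was 1.22 in place of 1.41 (log2).

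Cnga2 encodes the main subunit of the cyclic-nucleotide-gated channel through which olfactory sensory neurons respond to odour. Control arrays gave 7.82, 5.59 and 7.21 distally and 8.26, 8.19 and 8.23 proximally. Mutant arrays gave 5.26, 5.60 and 5.60 distally and 4.99, 5.21 and 7.03 proximally, against 4.84 to 5.31 in the mandible. After the control proximal arrays, the highest readings were those of control distal arrays 1 and 3 and of mutant proximal array 3, and every other maxilla reading was 5.60 or below. The 250 bases before its start (chrX:71991599-71991848, plus strand, RefSeq GRCm38.p6) are shown because early B-cell factors (EBF) are known regulators of olfactory neuron genes. They hold 1 match to the core CCCNNGGG of these factors, in capitals, at -66 to -59.
Cnga2: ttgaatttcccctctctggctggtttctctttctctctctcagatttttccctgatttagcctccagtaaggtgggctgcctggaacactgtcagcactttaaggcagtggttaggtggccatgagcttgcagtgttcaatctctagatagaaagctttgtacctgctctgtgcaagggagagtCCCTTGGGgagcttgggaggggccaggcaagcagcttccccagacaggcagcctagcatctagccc

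Gng8 encodes a G protein gamma subunit of developing olfactory and vomeronasal neurons. It read 9.87, 8.41 and 10.03 on control distal arrays and 10.94, 11.03 and 10.92 on control proximal arrays. Mutant readings were 7.63, 8.28 and 8.53 distally and 7.57, 7.79 and 10.10 proximally, against 7.42 to 7.83 in the mandible. As with Cnga2, the 3 control proximal arrays were the highest and both mutant proximal arrays 1 and 2 and mutant distal array 1 were within the mandible range. Mutant distal arrays 2 and 3 were above that range, and nearer to it than to the control proximal arrays.

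Foxj1 is the transcription factor that switches on the motile cilia program. Control arrays read 9.85, 6.96 and 9.33 distally and 9.68, 9.19 and 9.87 proximally. Mutant arrays read 5.77, 7.70 and 8.95 distally and 5.41, 5.55 and 10.15 proximally, against 5.30 to 5.65 in the mandible. The highest Foxj1 reading of the 24 arrays was on mutant proximal array 3.

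Dynlrb2, a light chain of the dynein motors that is enriched in ciliated cells, read 11.44, 8.15 and 10.56 on control distal arrays and 11.19, 10.62 and 11.33 on control proximal arrays. In mutants it read 6.20, 9.49 and 10.21 distally and 5.41, 5.30 and 11.30 proximally, and in the mandible 5.07 to 5.66. Its paralog Dynlrb1, a general dynein chain, was between 11.96 and 12.37 on the maxilla arrays and above its mandible range on 0 of 12. The Dynlrb2 promoter is shown because factors of the RFX family, which bind a paired motif called the X-box, are known regulators of cilia genes. The 250 bases before its start (chr8:116504765-116505014, plus strand, RefSeq GRCm38.p6) hold both parts of the motif, GTTGCC and GNAAC with 0 to 3 bases between, in capitals at -51 to -39.
Dynlrb2: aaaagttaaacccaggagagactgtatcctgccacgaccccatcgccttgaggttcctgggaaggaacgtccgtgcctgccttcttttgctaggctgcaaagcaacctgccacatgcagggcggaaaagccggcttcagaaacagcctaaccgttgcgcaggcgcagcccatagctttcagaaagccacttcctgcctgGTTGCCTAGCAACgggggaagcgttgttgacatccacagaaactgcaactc

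The 3 motifs were chosen after the sequences had been seen and were searched on both strands of the 250 bases before each start. Among 32851 mouse promoters in the table, 0.685% held the paired X-box parts, 11.8% the EBF core and 12.4% TATAAA. Promoters were at hand for 8 of the 10 genes (Foxj1 and Eya1 are the other two). The X-box parts were found in Dynlrb2 alone, the EBF core in Cnga2 alone, and TATAAA in Bpifa1, Otx2 and Sp8. For Otx2 the match was at 1 of 4 starts (-192 to -187), and for Sp8 at 1 of 3 (-230 to -225 and -118 to -113). A gene was counted with a match at any of its starts, while the shares are over single promoters, so counts and shares are not to be compared. A match is a description of letters and shows no binding.

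In controls, the 10 genes were each higher in the maxilla than in the mandible at both ends, with no overlap between the groups. At the proximal end the differences ran from 1.41 for Eya1 (means 11.59 ± 0.10 and 10.19 ± 0.19, SD, n = 3) to 7.92 for Bpifa1 (13.28 ± 0.38 and 5.37 ± 0.20), with a median of 5.30. At the distal end they ran from 0.79 (Eya1) up to Bpifa1 (11.56 ± 2.11 and 4.97 ± 0.50), with a median of 3.94. Of all 12811 genes tested, 24.8% were higher in the control proximal maxilla without overlap and 19.1% in the control distal maxilla, and the median difference of all of them was -0.02 proximally and 0.01 distally. Since the genes were chosen by this contrast among others, nothing is read from their count.

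The lists named here and below hold other genes of the same tissues. They were drawn up from general knowledge with earlier results in view, and a gene was called at an adjusted p of 0.05 (limma, Benjamini-Hochberg over 12811 genes). At the proximal ends of controls, 17.0% of all genes were called higher in the maxilla and 16.6% lower, and at the distal ends 5.73% and 3.08%. With arrays centred on their median the split was 1932 higher and 3447 lower proximally, in place of 2175 and 2127, and 646 and 1287 distally, in place of 734 and 395. Quantile normalization gave 741 and 759 distally. A dim gene can pass the filter through the maxilla arrays alone, and such a gene had to differ between the jaws, so the counts of tested genes describe them and are not shares of a whole list.

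Before any filter, the lists were set against the mandible range of each gene. Of 36 motile cilia genes on the array (40 listed), 29 were above that range on at least 1 maxilla array and 7 on none. Among 21 nasal and airway secretory genes on the array (25 listed), 10 were above and 11 were not, and those at the mandible level include Scgb1a1, the secretoglobin of airway club cells, Bpifb1, a relative of Bpifa1, and the odorant-binding protein Obp2a. All 13 olfactory neurogenesis factors on the array (15 listed) exceeded their range. So did 10 of 14 genes of olfactory receptor neuron signalling (18 listed). Of the lists for other tissues, 10 of 14 cartilage genes, 6 of 12 keratinocyte genes and 5 of 17 skeletal muscle genes did so. For simple epithelium and neuron genes it was 11 of 13 and 12 of 14. The share over all genes was not computed, so nothing about nasal tissue is read from these counts.

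At the proximal ends the genes called higher in the maxilla were 12 of 12 tested olfactory neurogenesis factors (the basic helix-loop-helix genes that make neurons in the nose, such as Neurod1, and their partners), 18 of 21 motile cilia genes, 12 of 12 simple epithelium genes and 12 of 14 general neuron genes. Of 10 tested genes of olfactory receptor neuron signalling, 5 were called higher and 1 lower, and of 10 tested secretory genes, 7 were called higher and 1 lower, a lower call that was lost without control proximal maxilla array 1 or 3 or control proximal mandible array 1 or 3. Of 10 tested placode factors, 5 were higher and 2 lower. All 16 tested skeletal muscle genes were called lower in the maxilla there.

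The counts at the distal ends were smaller, with 6 of 12 neurogenesis factors, 7 of 21 cilia genes, 2 of 12 simple epithelium genes, 9 of 14 neuron genes, 2 of 10 signalling genes, 2 of 10 placode factors and 4 of 10 secretory genes called higher, and 12 of 16 muscle genes lower. They rested on single arrays. Without control distal maxilla array 2, which had the lowest nasal readings of its group, 17 cilia genes and 5 signalling genes were called. Without array 1 of that group, and again without array 3, 1 cilia gene, 2 neurogenesis factors, 0 secretory genes, 0 simple epithelium genes and 1 neuron gene were called, and leaving out 1 control distal mandible array left 1 or 2 cilia genes, 1 secretory gene, 0 or 1 simple epithelium genes and 3 to 5 neuron genes. Muscle calls ran from 5 to 9 when 1 array was left out. Without control distal mandible array 1, 3 neurogenesis factors were called, and without control distal maxilla array 3, 1 signalling gene and 0 placode factors.

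Tissues that could lie beside the nose in a maxilla piece were looked for by their defining markers. Of 12 forebrain markers on the array, 7 were above their mandible range on no maxilla array, among them Emx1 (7.27 to 7.56 on maxilla arrays, 7.34 to 7.74 on mandible arrays) and Nkx2-1 (5.47 to 5.99 and 5.55 to 6.11). The other 5 were Neurod6 and Nr2e1 (above on 6 arrays each), Tbr1 (4), Bcl11b (3) and Barhl2 (1). Neurod6 read 3.77 to 5.70 on maxilla arrays against 3.69 to 3.97 on mandible arrays, and Nr2e1 4.79 to 6.29 against 4.69 to 4.96. Tbr1 read 3.89 to 4.33 against 3.85 to 4.17, Bcl11b 11.74 to 12.40 against 10.37 to 12.19, and Barhl2 3.97 to 4.37 against 4.14 to 4.37. Of 12 eye markers, Rax, Crx and Cryaa were above on no array, and the other 9 on 1 array or more. Among those 9 were the pigment genes Pmel (11), Dct (9), Tyr (9), Mitf (6) and Tyrp1 (4), which melanocytes of the skin also express. The rest were Six6 (4, at 4.10 to 6.22 against 4.05 to 4.36), Rpe65 (3), Crygd (2) and Cryba1 (1). Of 7 choroid plexus markers, 5 were above on no array, among them Ttr, Folr1 and Kl, and Kcnj13 was above on 8 and Clic6 on 7.

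In the proximal maxilla the mutant means of all 10 genes were below the control means, by amounts that rest on arrays 1 and 2. The mutant minus control differences were -5.84 for Bpifa1, -4.72 for Otx2, -3.90 for Sp8, -3.82 for Fezf1, -3.71 for Dynlrb2, -2.77 for Lhx2, -2.55 for Foxj1, -2.49 for Cnga2, -2.47 for Gng8 and -1.51 for Eya1. Their median was -3.24, and that of all genes tested was 0.01. The mutant groups were wide, with Bpifa1 at 7.44 ± 4.97 against 13.28 ± 0.38 in controls and Dynlrb2 at 7.34 ± 3.44 against 11.05 ± 0.38 (SD, n = 3). For 7 genes the groups did not overlap, and for Bpifa1, Foxj1 and Dynlrb2 the reading of mutant array 3 lay inside or above the control range. Without mutant array 3 the median was -4.62 and the Bpifa1 difference -8.71, without array 1 the median was -2.43, and without array 2 it was -2.70. Of all genes, 16.7% were lower in the mutant proximal maxilla without overlap, a contrast the choice of the 10 genes used.

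In the distal maxilla the differences were smaller and the groups overlapped for all 10 genes. They ran from -0.19 for Bpifa1 (11.38 ± 1.13 in mutants, 11.56 ± 2.11 in controls) to -1.90 for Lhx2, with a median of -1.40 against -0.01 for all genes, of which 5.83% were lower without overlap. The size rested on single arrays for some genes and not for others. Without mutant distal array 1 the median was -0.29 and the differences of Bpifa1 and Fezf1 were 0.33 and 0.01, while those of Cnga2, Lhx2 and Gng8 were -1.27, -1.26 and -1.03, against -1.38, -1.90 and -1.29 with it. Without control distal array 2 the median was -2.03.

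**Figure D2:**
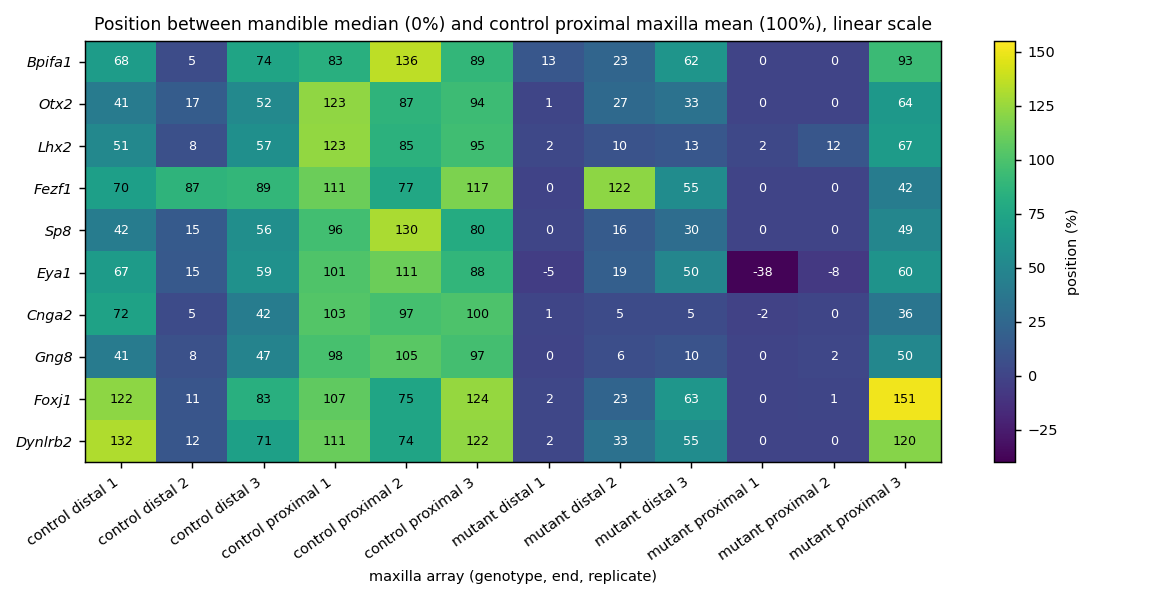
Position of each gene on each of the 12 maxilla arrays, in percent of the distance from its mandible median (0%) to its control proximal maxilla mean (100%) after the log2 values were turned back to a linear scale. On mutant distal arrays 2 and 3, Cnga2 and Gng8 are at 4.8% to 9.7% and Fezf1 is at 121.8% and 54.9%, and on control distal array 2 Fezf1 is at 86.6% and every other gene at 16.7% or below.

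To set genes of different brightness side by side, each reading was turned back to a linear scale and placed between the median of the 12 mandible arrays (0%) and the control proximal maxilla mean (100%, the mean taken on log2). On control distal array 2, Fezf1 stood at 86.6% and the other 9 genes between 4.6% (Cnga2) and 16.7% (Otx2), with Bpifa1 at 5.3%. Mutant distal arrays 2 and 3 had Cnga2 and Gng8 at similar positions to control distal array 2, where Gng8 stood at 8.1%. Bpifa1, Otx2, Foxj1 and Dynlrb2 stood higher on both than on that control array. On mutant distal array 2, Fezf1 stood at 121.8%, Dynlrb2 at 32.8%, Otx2 at 26.8%, Bpifa1 at 23.3% and Foxj1 at 23.0%, and Lhx2, Gng8 and Cnga2 at 9.9%, 6.5% and 4.8%. On mutant distal array 3, Foxj1 (62.7%), Bpifa1 (61.7%), Dynlrb2 (55.1%) and Fezf1 (54.9%) were highest and Lhx2 (12.7%), Gng8 (9.7%) and Cnga2 (4.8%) lowest. The pair of odour signalling genes was thus below the other 8 on both of these mutant arrays. Eya1, the fifth placode factor, stood at 14.6%, 18.9% and 49.5% on the 3 arrays in turn.

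The scale matters here. The log2 span from mandible to control proximal maxilla is 3.06 for Cnga2 and 8.49 for Bpifa1, so a position on the log2 scale is lower for a gene of short span at the same dilution. On that scale control distal array 2 had Bpifa1 at 51.0%, Gng8 at 24% and Cnga2 at 13.8%, a gap that the linear scale does not show. Positions were first taken on the log2 scale, and the linear scale was chosen after those values had been seen. The differences between genes were not tested.

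On mutant distal array 1, Bpifa1 stood at 12.9% of the linear span and the other 9 genes at 1.9% or below. Of the 10 genes, 5 were above their mandible range on that array. On mutant proximal array 1 none of the 10 was, and on array 2 Lhx2 alone, at 12.4%. Mutant proximal array 3 had all 10 above, from 35.8% for Cnga2 to 150.8% for Foxj1. All 10 were above on the control maxilla arrays with the exception of Eya1 on distal array 2.

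**Figure D3:**
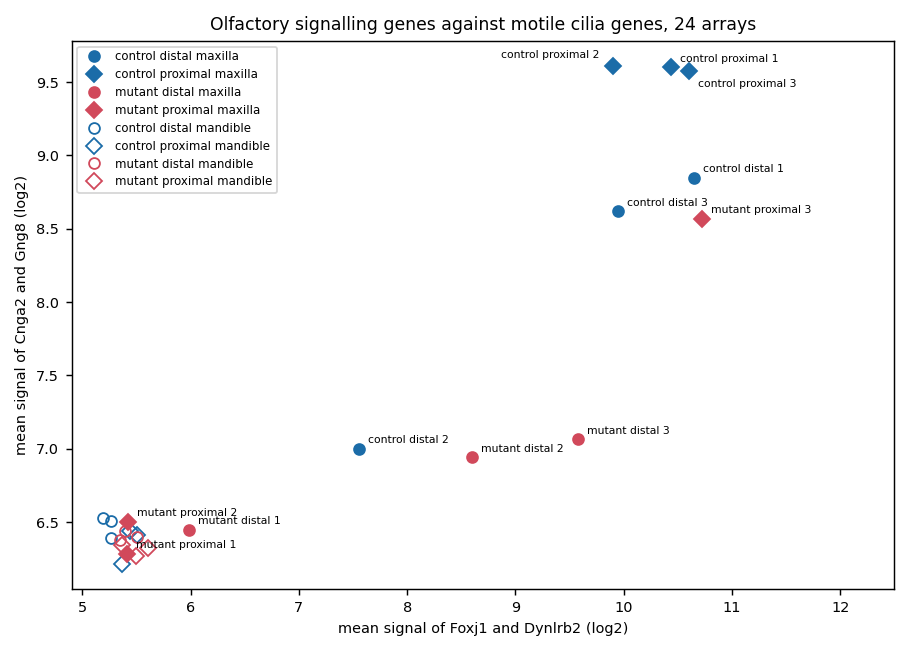
Mean log2 signal of Cnga2 and Gng8 (vertical axis) against the mean of Foxj1 and Dynlrb2 (horizontal axis) on the 24 arrays, with maxilla arrays filled and named and mandible arrays open. Control distal array 2 and mutant distal arrays 2 and 3 have cilia means of 7.55 to 9.58 with signalling means of 6.94 to 7.07, and mutant proximal arrays 1 and 2 lie among the mandible arrays.

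The ends of the maxilla were compared within controls. The control maxilla arrays are also an arm of the contrasts with earlier results in view when the 10 genes were chosen, so genes picked as high on the control proximal arrays tend to read lower at the other end, and the p-values that follow are not independent of the choice. All 10 genes had lower means at the distal than at the proximal end, with a median difference of -1.44 (log2), and 0 of 10 passed the limma test, beside 8.42% of all genes called. At an unadjusted p of 0.05, 2 of the 10 passed, and the share of all genes at that threshold was not computed. Those 2 were Gng8, at -1.52 ± 0.47 (SE, limma adjusted p = 0.0538), and Cnga2, at -1.36 ± 0.44 (limma adjusted p = 0.0668), and the 3 arrays of each end did not overlap in either gene. Lhx2 and Bpifa1 had larger differences with larger errors, -1.75 ± 0.87 and -1.72 ± 1.51, and Fezf1 had the smallest difference, -0.29. The errors come from 1 spread per gene shared by all 8 groups, and not from these ends alone. Bpifa1 had an SD of 4.97 in the mutant proximal maxilla, which is outside this comparison. The arrays of the distal and proximal ends did not overlap in 7 of 10 genes. The share of all genes without overlap was not computed for these ends, so nothing is read from that count.

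The 2 odour signalling genes lay so close to the threshold that the setting decided their call. With the replicate number as a block both were called (limma adjusted p = 0.0372 for Gng8 and 0.0448 for Cnga2). Control maxilla arrays numbered 2 read Xist at 12.97 distally and 6.49 proximally. The block therefore did not pair the ends of 1 embryo throughout. Without control distal array 2, which was the low array of its group, the differences were -1.01 for Gng8 (limma adjusted p = 0.346) and -0.72 for Cnga2 (limma adjusted p = 0.427). Over all settings tried the adjusted p ran from 0.00592 to 0.346 for Gng8 and from 0.00496 to 0.427 for Cnga2.

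Among related genes, some were called between the same ends. Of 10 tested genes of olfactory receptor neuron signalling, 4 were lower at the distal end: Omp, the marker of mature olfactory neurons (-0.68 ± 0.20, limma adjusted p = 0.0399), Gnal, the olfactory G protein alpha subunit (-0.94 ± 0.26, limma adjusted p = 0.0333), Gnao1 (-0.88 ± 0.25, limma adjusted p = 0.0399) and the glutamate transporter Slc17a6 (-1.69 ± 0.46, limma adjusted p = 0.032). Of 12 neurogenesis factors, 3 fell, which were Neurog1 (-0.65), Ebf2 (-1.62) and Hes6 (-1.06). Of 10 placode factors, Pax6 was lower (-2.21) and Tfap2a higher (1.42). Of 21 motile cilia genes, 10 secretory genes and 12 simple epithelium genes 0 were called by limma (2, 2 and 1 at an unadjusted p of 0.05), with median differences of -0.50, -0.24 and -0.68 against 0.02 for all genes. Without control distal array 2 the counts were 0 for signalling, 0 for neurogenesis and 0 for placode factors, and leaving out control proximal array 1 took signalling to 0, neurogenesis to 1 and placode factors to 0. Neurogenesis was also 1, and Pax6 was not called, without control proximal array 3. Signalling also fell to 0 without control proximal array 2, and to 1 without control distal array 3 or control proximal array 3. In a fit of the 6 control maxilla arrays alone, 0 signalling genes, 1 neurogenesis factor and 0 placode factors were called.

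Surface epithelium differed between the same ends in the opposite direction. All 12 keratinocyte genes were called higher at the distal end, among them Krt1 (3.56 ± 0.78, limma adjusted p = 0.0109) and Krt15 (2.13 ± 0.34, limma adjusted p = 0.00239). Their mean centred level was 0.45 to 1.49 on the control distal arrays and -2.46 to -0.11 on the control proximal arrays. Without control distal array 2, and again without control proximal array 1, 4 of the 12 were called, and 7 without control proximal array 2. In the fit of 6 arrays, 0 were called. The part of this difference in the nasal values was not tested.

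**Figure D4:**
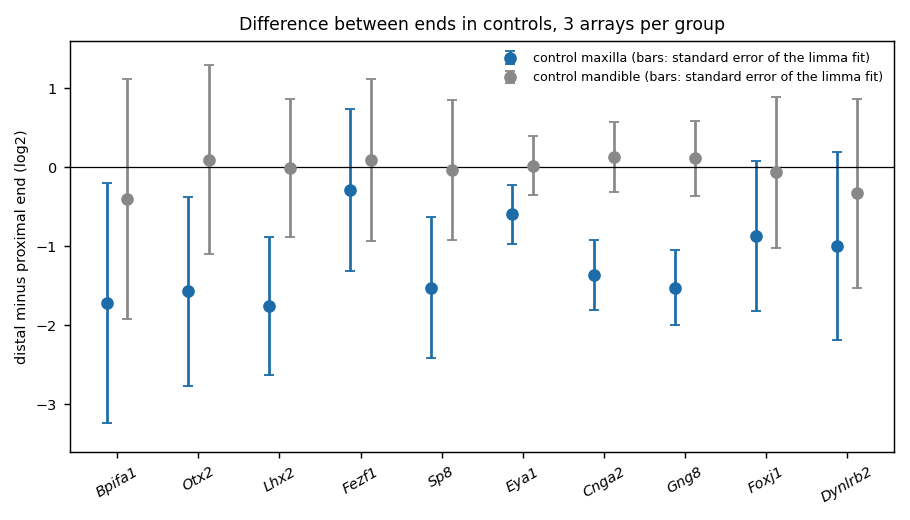
Difference between the distal and the proximal end in controls (log2, vertical axis) for the 10 genes in the maxilla and in the mandible. Bars are 1 standard error of the limma fit, with 3 arrays per group. That fit shares 1 spread per gene over all 8 groups, so a gene has equal bars in both jaws. All 10 maxilla points lie below 0, and the mandible points lie between -0.40 and 0.13.

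The mandible arrays, which hold no nasal cavity, gave the background of these readings. Between the ends of the control mandible 0 of 10 genes were called (limma, lowest adjusted p = 0.941), beside 5.78% of all genes called. The differences ran from -0.40 to 0.13. Between genotypes in the distal mandible 0 of 10 were called (limma, lowest adjusted p = 0.863), beside 0.742% of all genes called. Here the differences ran from -0.35 to 0.20. Between genotypes in the proximal mandible 0 of 10 were called (limma, lowest adjusted p = 0.44), beside 4.34% of all genes called. At an unadjusted p of 0.05, 0 of 10 passed in each of these mandible comparisons. The share of all genes at that unadjusted threshold was not computed. A p that misses the threshold does not show that the levels are alike. The genes were chosen as low in the mandible of controls, so these tests too share arrays with the choice. The fit shared 1 spread per gene over all 8 groups, the wide mutant proximal maxilla group among them. Otx2, with SDs of 0.0058 and 0.17 in the distal mandible of mutants and controls, had an SE of 1.193. Small differences in the mandible could therefore hardly be called.

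Lhx2 had the largest difference between genotypes in the mandible, at levels below the array medians. In the proximal mandible it was 4.45 ± 0.11 in mutants and 5.76 ± 0.49 in controls (SD, n = 3), a difference of -1.31 ± 0.87 (SE, limma adjusted p = 0.44), and the groups did not overlap. When only the 6 arrays compared entered the fit, it was called (limma adjusted p = 0.0402). Over all settings its adjusted p ran from 0.0402 to 0.725. Among genes of the lists, the called ones between genotypes in the mandible were Ckm, the muscle creatine kinase, at -3.59 distally and -2.88 proximally, Ebf1 at 0.79 distally and the motor neuron and jaw factor Isl1 at -1.63 proximally.

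The wider lists also differed between genotypes in the proximal maxilla. There 12.2% of all genes were called higher in mutants and 11.1% lower. Called lower were 8 of 12 neurogenesis factors, with Neurod1 at -4.49 ± 1.01 (SE, limma adjusted p = 0.00438), 7 of 10 placode factors, with Sox2 at -1.90, and 5 of 10 signalling genes, with Omp at -1.18 ± 0.20 (limma adjusted p = 0.000693). Also lower were 8 of 21 motile cilia genes, with Rsph1, a radial spoke protein, at -2.06 and Enkur at -1.95, and 7 of 10 secretory genes, with the steroid sulfotransferase Sult1e1 at -4.39 and the olfactory cytochrome Cyp2g1 at -2.81. Of 12 simple epithelium genes 8 were lower, with Foxa1 at -4.04, and of 14 neuron genes 8 were lower, with Tubb3 at -2.85. Because the 10 genes were picked from this contrast, and because dim genes can pass the filter through the control maxilla alone, these counts add no support to them.

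Most of those counts moved when 1 mutant array was left out. Without mutant proximal array 1 the counts were 4 for neurogenesis, 2 for placode, 3 for signalling, 1 for cilia, 1 for secretory, 2 for simple epithelium and 5 for neuron genes. Without array 2 they were 5, 4, 3, 1, 1, 2 and 5 in the same order. Without array 3, the one with nasal genes near control levels, 17 of 21 cilia genes were called lower. Leaving out 1 control array took the cilia count to 1 or 2 and the secretory count to 3 or 4. It also took, without control proximal array 3, the placode count to 4, and without control proximal array 1, the neuron count to 5. In a fit of the 6 proximal maxilla arrays alone, 2 signalling genes, 1 placode factor and 1 neuron gene were called lower, and 0 of the neurogenesis, cilia, secretory and simple epithelium lists.

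Other tissues differed between genotypes in the same pieces. Skeletal muscle genes were called higher in 10 of 16 (Myog 3.13, Myod1 2.81), cartilage genes lower in 9 of 14 (Matn1 -5.05, Acan -3.37), keratinocyte genes higher in 10 of 12 (Dmkn 3.93, Krtdap 3.86) and all 4 tested pigment genes of the eye list higher (Dct 2.94, Pmel 2.55). The muscle list ranged from -0.13 to 1.92 on mutant proximal arrays and from -1.84 to -0.85 on control proximal arrays, and the cartilage list from -2.79 to 0.77 and from 0.22 to 1.71. Muscle calls were 3 without mutant array 1 and 6 without array 2, and cartilage calls were 0 without either and 14 without array 3. Cartilage calls were also 0 without control proximal array 1 or 3. In the fit of 6 arrays, 6 muscle, 0 cartilage, 0 keratinocyte and 4 pigment genes were called. In the distal maxilla, where 0.109% of all genes were called higher and 0.0859% lower, 0 of the 140 tested genes of the lists were called by limma (16 at an unadjusted p of 0.05). The part of these tissues in the nasal values was not tested.

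**Figure D5:**
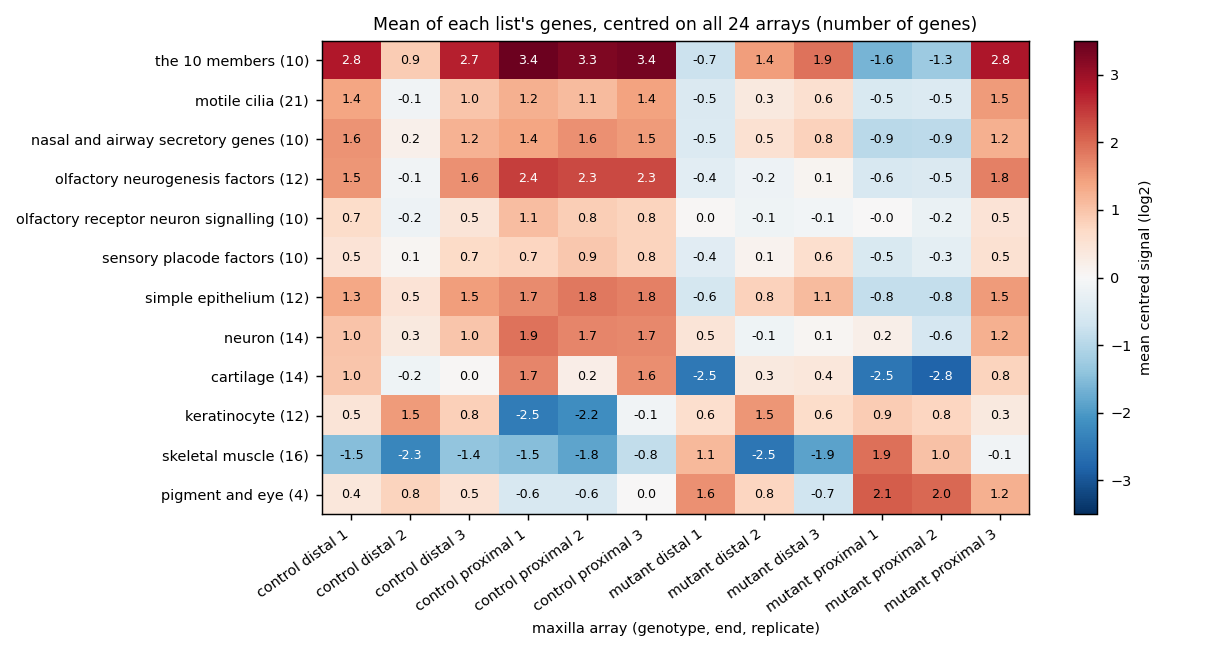
Mean centred log2 signal of the 10 genes and of each marker list (rows) on each array (columns). On mutant proximal arrays 1 and 2 and mutant distal array 1 the nasal and cilia lists are low together with cartilage while skeletal muscle is high, and mutant proximal array 3 has nasal genes at 2.84 and muscle at -0.13.

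The genes most like each role were picked by Pearson r over the 12 maxilla arrays, which fall into high and low ones, so high values come easily and are descriptions only. Closest to Bpifa1 were Cbr2 (r = 0.96), Tmem138 (0.96), Foxa1 (0.96) and Tmem30b (0.95). Without the 2 arrays farthest from the median, which are mutant proximal arrays 1 and 2, these were 0.95, 0.90, 0.77 and 0.85. Closest to the mean of the placode factors were Epcam, Cadps2, Cyb561 and Cmtm8, each at 0.99, of which Epcam is a general epithelial adhesion protein. Closest to Cnga2 and Gng8 were Pls1 (0.9960), Rd3, Nhlh1 and Mapk10 (0.99 each), and Nhlh1 is a neurogenesis factor of the nose. Closest to the cilia pair were Deup1, which builds the many basal bodies of ciliated cells (0.9968), Ccno, a cyclin of the same step (0.9962), Capsl and Myb (both 0.99).

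Pls1 and Deup1 led the signalling and the cilia likeness. Pls1 read 10.05, 10.17 and 10.25 on control proximal arrays, and 8.16 on both mutant distal arrays 2 and 3. Deup1 read 9.42, 8.80 and 9.50 on control proximal arrays and 7.79 and 8.40 on the same mutant distal arrays. The mandible arrays of Pls1 lay near those distal readings, at 7.33 and 7.77 for the lowest and highest, and those of Deup1 lay at 5.28 and 5.71. Both genes were picked for their likeness to the 10, so they add no independent evidence.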

How the data were processed

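Per the labels' protocols, RNA came from Qiagen RNeasy kits, and biotin-labelled cRNA made from 5 µg of it was put on Affymetrix arrays. The deposited table holds 1 log2 value for each of 45101 probe sets and each of 24 arrays. The submitters' processing notes name RMA and Partek 6.6, with settings and build not given in the sources used here. That the scale is log2 was read from the values. Leaving out 64 control probe sets, 34945 carried a single symbol, 932 carried several and 9160 carried none. Of those with a single symbol, 34741 matched a RefSeq gene by identifier. Columns of no listed sample numbered 0.

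A gene was represented by its probe set with the highest mean. Genes above the array's own median on at least 3 of 24 arrays were tested, 12811 in all, with limma 3.58.1 in R 4.3.3 (lmFit, eBayes, two-sided, Benjamini-Hochberg, threshold 0.05) in 1 fit of 8 groups. The fit was also run on simulated data with equal spread in all 8 groups. The groups of these arrays differ in spread, so that run does not test how the fit handles unequal spread. The members and the lists were chosen with earlier results of these data known. Named genes were the 10 members, the 4 most alike genes of each role, up to 4 genes of a list with the largest proximal maxilla difference, and any list gene called in the mandible or between ends; the motifs and markers of neighbouring tissues were named in addition, after their values were seen. Alternatives were the mean of all probe sets, no filter, quantile normalization, median centring, only the arrays compared, array weights, trend and robust eBayes, a replicate block, and leaving out each array. The number of arrays limits the precision.

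Pairing was checked by correlating the deviations of arrays with the same replicate number. It was above 0.1 in every pair for the genotypes in both mandible ends, the ends of control maxilla (0.497, 0.181 and 0.110) and mandible, and the jaws at the proximal end, and not for the genotypes in the maxilla or the jaws at the distal end. Control and mutant pieces, which never share an embryo, also passed this cut in the mandible. The cut therefore does not detect pieces of 1 embryo, and no pairing was established from it or from the labels. Among controls numbered 2, Xist read 6.49 in the proximal maxilla and 12.43 to 12.97 in the other pieces, so that number does not mark 1 embryo throughout. The linear scale for positions was added after the data were seen.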

Additional observations from a re-analysis of the deposited data

How the results depend on the processing

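Among the 10 genes, the number called between the ends of the control maxilla was 0, and it was 1 with quantile normalization, 1 with arrays centred on their median, 2 with array weights and 2 with the replicate block. Leaving out 1 array at a time it ran from 0 to 1. The call was Gng8 under quantile normalization and centring (adjusted p of 0.0467 and 0.0458), Cnga2 without control distal array 1 (0.0188) and Gng8 without control distal array 3 (0.0477). In the proximal mandible the count was 0, and 1 (Lhx2) with only the arrays compared. The replicate block changed no other call of the 10 genes. All other settings kept the counts in the mandible at 0. The median differences in the maxilla and between jaws kept their direction under every setting tried. The 10 genes were chosen with these contrasts in view, so the kept direction adds no support. Sizes did change, as given above for the distal maxilla without mutant distal array 1. The causes were not tested. There were 3 arrays a group, and several readings lay at the background of the probe set. Differences of dim genes such as Cnga2 may be understated, which was not tested.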
